A study of Danio rerio with 6 samples.

Results

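The Hox genes are the homeobox transcription factors that lie in clusters on the chromosomes and carry the cluster letter and paralog number in their names. They were taken as every gene of the deposited table whose name starts with hoxa, hoxb, hoxc or hoxd followed by a digit, in any case, which gave 48 of 29126 genes. The paralog number runs through 13 groups, here split into 13 anterior genes (groups 1 to 4), 12 central genes (groups 5 to 8) and 23 posterior genes (groups 9 to 13). By RefSeq's zebrafish annotation (assembly GRCz12tu), the name pattern covers 49 genes in 7 clusters; hoxa4a was not analysed here.

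Hox proteins give cells along the body axis their regional identity. Genes at one end of a cluster are switched on early and far forward, in the hindbrain, the pharyngeal arches and the crest cells that enter the arches, and genes at the other end are switched on later, in the trunk, the tail and the distal fins. Retinoic acid and Cdx factors act upstream of them, Polycomb and Trithorax proteins keep their on and off states, and Pbx and Meis proteins bind DNA beside them as cofactors. Zebrafish kept duplicate copies of several clusters, so many Hox genes exist as a pair named a and b.

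RNA was sequenced from 3 cell populations of zebrafish with the genotype Tg(fli1:EGFP), whose green fluorescent protein is driven by regulatory DNA of fli1, a gene of vessel, blood and arch cells. The labels name the populations High-Fli1+, Low-Fli1+ and Fli1-, with 2 libraries each, and all 3 carry the transgene. The labels give neither the stage, nor how the cells were separated, nor whether the 2 libraries of a population came from separate embryos, so the p-values measure the spread between these libraries, which may be technical. Values are FPKM, fragments per transcript length and per library total, so levels of different genes can be set side by side, but the depth behind a value is unknown.

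The libraries differed in more than the Hox genes. Of all 29126 genes, 38.0% and 39.3% were listed at 0 in the High-Fli1+ libraries, 48.3% and 43.2% in Low-Fli1+ libraries and 29.8% and 29.0% in Fli1- libraries. The 12 endothelial marker genes summed to 373 and 329 FPKM in High-Fli1+, 109 and 92.1 FPKM in Low-Fli1+ and 8.66 and 10.2 FPKM in Fli1- libraries. Of these sums, fli1a alone gave 241 and 192 FPKM in High-Fli1+, 66.8 and 52.0 FPKM in Low-Fli1+ and 1.04 and 5.55 FPKM in Fli1- libraries. Because the transgene uses fli1 DNA, the sums are no independent check of the labels. In Low-Fli1+ against Fli1- cells, the log2 fold change was positive in 9 of the 12 and negative in 3. Of the pairs within a population, the Low-Fli1+ libraries were the least alike. Over the 48 Hox genes, Pearson's r of log2(FPKM + 1) was 0.819 between the High-Fli1+, 0.581 between the Low-Fli1+ and 0.904 between the Fli1- libraries. Low-Fli1+ replicate 2 had r of 0.587 and 0.610 with the Fli1- libraries, above its r with replicate 1. Low-Fli1+ replicate 1 had r of 0.429 and 0.436 with the Fli1- libraries, below its r with replicate 2. These are correlations across genes, which are not independent replicates.

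High-Fli1+ cells had the lowest Hox levels in sum. The 48 genes together reached 205 and 183 FPKM in the High-Fli1+ libraries, 433 and 485 FPKM in Low-Fli1+ and 420 and 520 FPKM in Fli1- libraries. The High-Fli1+ sums lay below the 4 others, while the Low-Fli1+ and Fli1- sums overlapped. In such bulk samples, fewer cells of a type and less RNA per cell cannot be told apart. At least 10 FPKM was reached by 4 Hox genes in each High-Fli1+ library, by 12 and 15 in Low-Fli1+ and by 15 and 21 in Fli1- libraries. Listed at 0 were 15 and 10 Hox genes in the High-Fli1+ libraries, 19 and 7 in Low-Fli1+ and none in either Fli1- library.

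**Figure D1:**
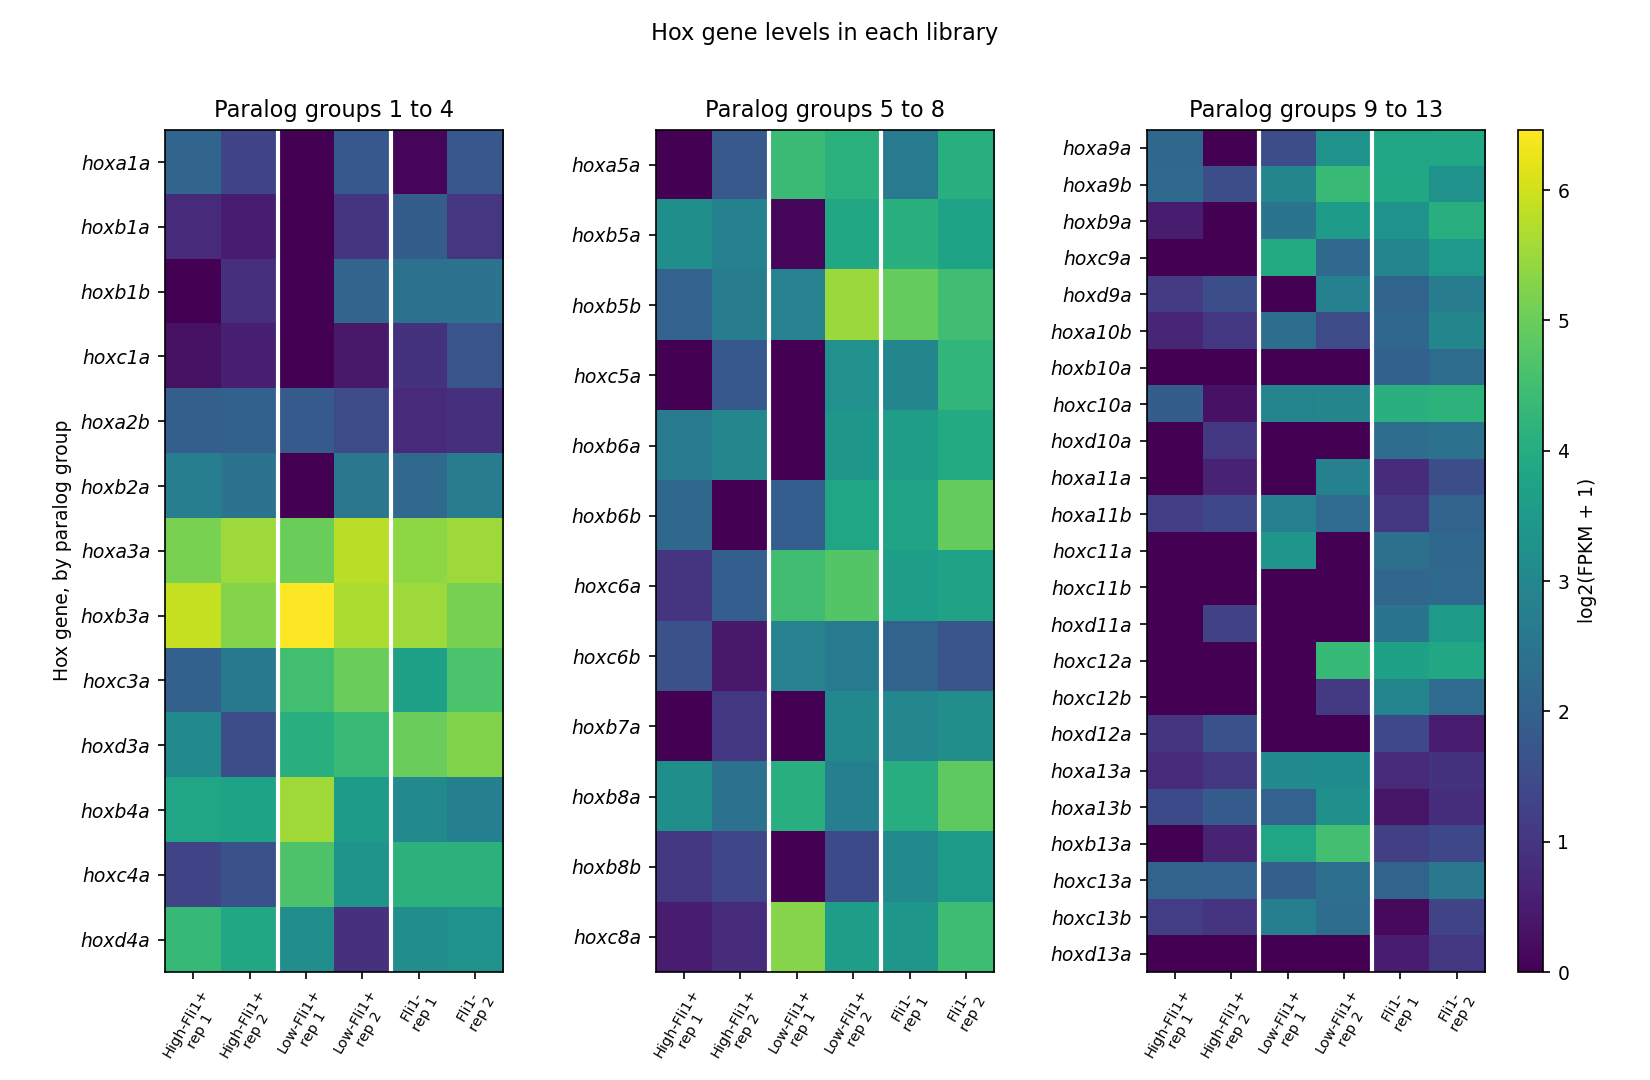
Heatmap of log2(FPKM + 1) for each of the 48 Hox genes (rows, by paralog group) in each of the 6 libraries (columns). Rows of hoxa3a and hoxb3a are bright in every library, whereas most rows of groups 5 to 12 are darker in the High-Fli1+ than in the Fli1- columns.

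The highest Hox levels in all 3 populations belonged to paralog group 3, whose genes pattern the posterior pharyngeal arches and the caudal hindbrain. The annotated span of each gene of this group overlaps that of another Hox gene, so reads of other groups may be included. hoxa3a had 34.6 and 44.6 FPKM in High-Fli1+, 31.3 and 54.5 FPKM in Low-Fli1+ and 40.4 and 44.7 FPKM in Fli1- libraries. hoxb3a had 58.6 and 37.5 FPKM in High-Fli1+, 87.3 and 50.3 FPKM in Low-Fli1+ and 44.7 and 34.3 FPKM in Fli1- libraries. For both genes the High-Fli1+ and Fli1- values overlapped, and 1 of these 2 genes was the most abundant Hox gene of every library. Together they made up 45.5% and 44.9% of the summed Hox FPKM in High-Fli1+, 27.4% and 21.6% in Low-Fli1+ libraries and 20.3% and 15.2% in Fli1- libraries.

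The gene given for a group in the next sentences is the one with the highest mean over the 6 libraries, which need not lead in each population. In group 1 it was hoxb1b, an early retinoic acid responsive gene of the hindbrain, with 0 and 0.864 FPKM in High-Fli1+, 0 and 3.32 FPKM in Low-Fli1+ and 4.38 and 4.48 FPKM in Fli1- libraries. In High-Fli1+ libraries hoxa1a was higher than hoxb1b, at 3.32 and 1.57 FPKM, and it had 0 and 2.43 FPKM in Low-Fli1+ and 0.0618 and 2.38 FPKM in Fli1- libraries. In group 2 it was hoxb2a, which with hoxa2b gives the hyoid arch its identity, at 5.85 and 4.55 FPKM in High-Fli1+, 0 and 4.88 FPKM in Low-Fli1+ and 3.65 and 5.60 FPKM in Fli1- libraries. Both Fli1- values of hoxb1b were above the other 4, and those of hoxb2a lay among the others. In group 4, hoxb4a, a gene of the caudal hindbrain, had 13.1 and 12.5 FPKM in High-Fli1+, 45.3 and 10.4 FPKM in Low-Fli1+ and 7.44 and 5.88 FPKM in Fli1- libraries. Both Fli1- values of hoxb4a were the lowest, and the pair of Low-Fli1+ values spread widely.

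Among the central genes, the highest mean of group 5 was that of hoxb5b, which limits the heart field in zebrafish, with 3.11 and 5.65 FPKM in High-Fli1+, 6.26 and 43.6 FPKM in Low-Fli1+ and 29.8 and 21.4 FPKM in Fli1- libraries. In group 7, the only gene was hoxb7a, a trunk gene, with 0 and 1.07 FPKM in High-Fli1+, 0 and 7.15 FPKM in Low-Fli1+ and 6.95 and 8.15 FPKM in Fli1- libraries. For both genes the High-Fli1+ values lay below the Fli1- values, and 1 Low-Fli1+ library was low while the other was within or above the Fli1- range.

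In posterior groups 9, 11 and 12, which in vertebrates pattern the trunk and tail, the highest means over the 6 libraries were those of hoxa9b, hoxc11a and hoxc12a. hoxa9b had 3.60 and 1.96 FPKM in High-Fli1+, 6.71 and 19.5 FPKM in Low-Fli1+ and 13.4 and 8.94 FPKM in Fli1- libraries. hoxc11a was listed at 0 in both High-Fli1+ libraries, had 9.29 and 0 FPKM in Low-Fli1+ and 4.23 and 3.48 FPKM in Fli1- libraries. hoxc12a was likewise listed at 0 in both High-Fli1+ libraries, had 0 and 19.0 FPKM in Low-Fli1+ and 12.04 and 13.4 FPKM in Fli1- libraries. In none of the 3 did the High-Fli1+ values reach the Fli1- values, and hoxc11a and hoxc12a were present in opposite Low-Fli1+ libraries. hoxc11a led group 11 in none of the 3 populations by mean: hoxa11b was higher in both Fli1+ populations and hoxd11a in Fli1- cells. hoxa11b had 1.25 and 1.65 FPKM in High-Fli1+, 6.04 and 3.77 FPKM in Low-Fli1+ and 1.06 and 3.13 FPKM in Fli1- libraries, so its High-Fli1+ and Fli1- values overlapped.

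Such splits marked the Low-Fli1+ pair. Of the Hox genes, 7 in Low-Fli1+ had a 0 in one library and 5 FPKM or above in its partner (hoxc5a, hoxb6a, hoxb7a, hoxd9a, hoxa11a, hoxc11a and hoxc12a), against 0 in High-Fli1+ and 0 in Fli1-. The same was true of 8.16% of all 19237 genes tested in Low-Fli1+, 1.24% in High-Fli1+ and 0.463% in Fli1-. Of the 7, all but hoxc11a were at 0 in replicate 1.

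**Figure D2:**
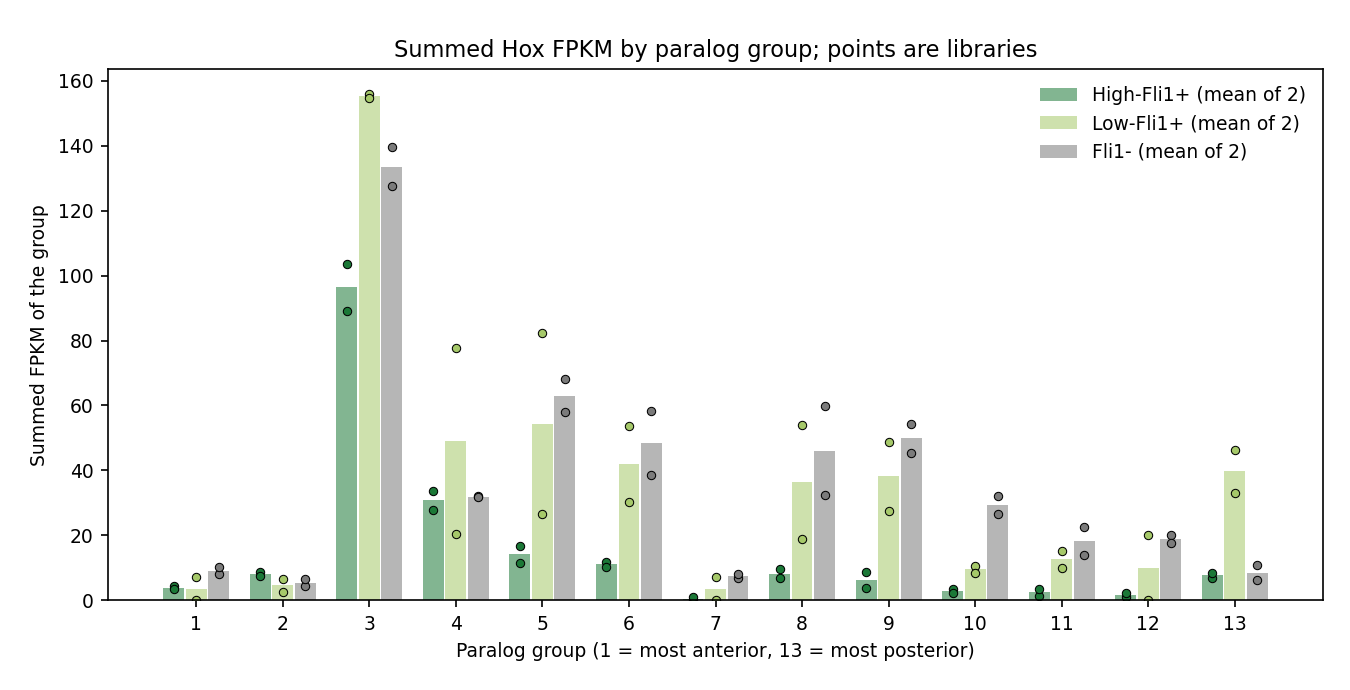
Summed FPKM of each of the 13 paralog groups (x axis) in each library (1 point per library, coloured by population). Group 3 is highest throughout, at 104 and 89.2 FPKM in High-Fli1+, 156 and 155 FPKM in Low-Fli1+ and 128 and 140 FPKM in Fli1- libraries; groups 5 to 12 are lowest in High-Fli1+, apart from Low-Fli1+ libraries at or near 0, and group 13 is highest in Low-Fli1+.

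Within a library, the balance of the 3 classes differed between populations. Anterior genes held 73.5% and 69.9% of the summed Hox FPKM in High-Fli1+, 54.5% and 39.0% in Low-Fli1+ libraries and 40.9% and 36.1% in Fli1- libraries. Posterior genes held 10.3% and 11.1% in High-Fli1+, 20.0% and 27.6% in Low-Fli1+ libraries and 26.8% and 26.5% in Fli1- libraries. Both High-Fli1+ libraries therefore had the largest anterior and the smallest posterior share of the 6, and the Low-Fli1+ libraries overlapped the Fli1- libraries in both shares. The posterior share averaged 10.7% ± 0.516 in High-Fli1+, 23.8% ± 5.42 in Low-Fli1+ libraries and 26.6% ± 0.191 in Fli1- libraries (SD, n = 2 each). An exact two-sided permutation test of 2 against 2 libraries cannot give a p below 0.333, so no test was run on the shares. Summed anterior FPKM was 150.4 and 128 in High-Fli1+, 236 and 189 in Low-Fli1+ libraries and 172 and 188 in Fli1- libraries, while the posterior sum was 21.2 and 20.3 in High-Fli1+, 86.5 and 134 in Low-Fli1+ libraries and 113 and 138 in Fli1- libraries.

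**Figure D3:**
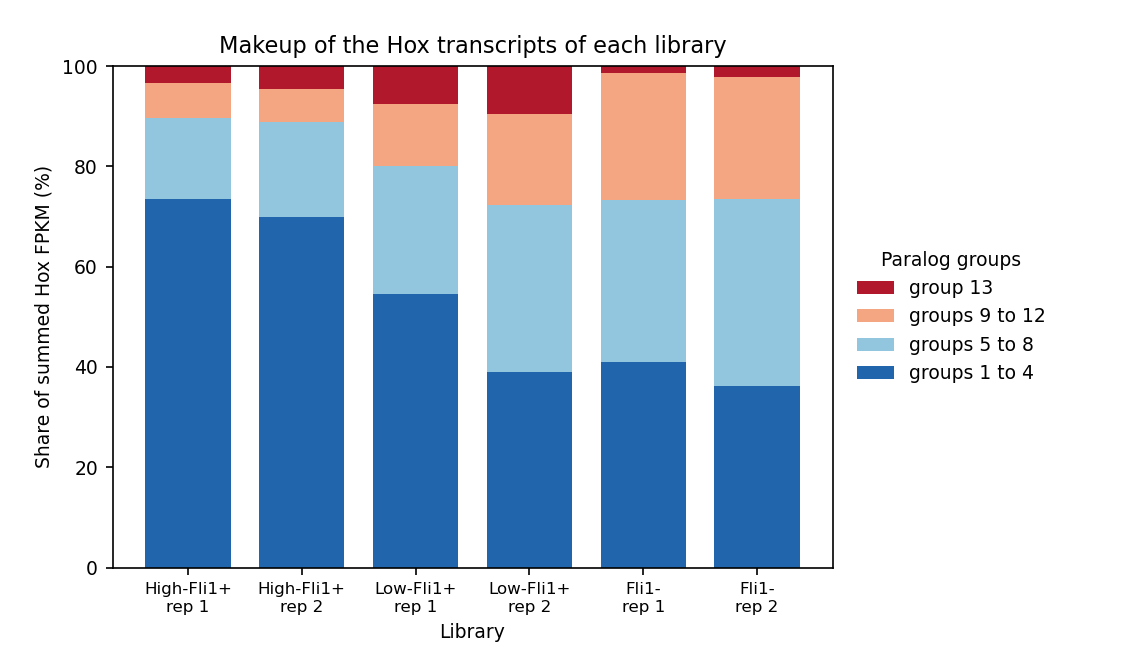
Share of the summed Hox FPKM (y axis, percent) held by anterior, central and posterior genes in each library, with the posterior genes split into groups 9 to 12 and group 13. The anterior share is 73.5% and 69.9% in High-Fli1+, 54.5% and 39.0% in Low-Fli1+ libraries and 40.9% and 36.1% in Fli1- libraries.

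High-Fli1+ cells were compared with Fli1- cells gene by gene. Of 47 Hox genes with a mean of at least 0.5 FPKM over the 6 libraries, 11 fell and 0 rose in limma's test at an adjusted p under 0.05. The background was 11.5% of all 19237 genes tested lower and 5.79% higher, so the 23.4% of Hox genes that fell is a higher share than that of all genes. The gene left untested was hoxd13a, listed at 0 in the 4 Fli1+ libraries and at 0.415 and 1.07 FPKM in the Fli1- libraries. At an unadjusted p under 0.05, 23 Hox genes were lower and 0 higher, against 22.1% and 9.88% of all genes.

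The anterior genes that fell were hoxd3a, hoxc4a and hoxc3a. hoxd3a had 7.38 and 1.88 FPKM in High-Fli1+, 15.5 and 19.3 FPKM in Low-Fli1+ and 30.6 and 36.6 FPKM in Fli1- libraries. hoxc4a had 1.49 and 2.05 FPKM in High-Fli1+, 24.4 and 9.11 FPKM in Low-Fli1+ and 16.7 and 16.8 FPKM in Fli1- libraries. hoxc3a had 3.05 and 5.12 FPKM in High-Fli1+, 21.7 and 30.5 FPKM in Low-Fli1+ and 11.8 and 24.0 FPKM in Fli1- libraries. In all 3, both High-Fli1+ libraries lay below the 4 others. On the log2(FPKM + 1) scale, which understates the change of low genes, the log2 fold changes were -2.81 ± 0.54 for hoxd3a, -2.69 ± 0.53 for hoxc4a and -1.84 ± 0.46 for hoxc3a (± SE), with limma adjusted p of 0.0223, 0.0232 and 0.0462.

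Among central genes, hoxc6a and hoxc8a fell, both of the trunk. hoxc6a, whose forward limit in vertebrates lies near the level of the paired fins or forelimbs, had 0.971 and 2.82 FPKM in High-Fli1+, 21.2 and 25.8 FPKM in Low-Fli1+ and 11.4 and 12.1 FPKM in Fli1- libraries. hoxc8a had 0.404 and 0.776 FPKM in High-Fli1+, 38.0 and 11.1 FPKM in Low-Fli1+ and 9.65 and 21.1 FPKM in Fli1- libraries. The High-Fli1+ values of both genes stood below all others. Their log2 fold changes against Fli1- were -2.22 ± 0.45 and -3.28 ± 0.69 (SE), with limma adjusted p of 0.0252 and 0.0286.

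The remaining 6 genes that fell were posterior, and of them hoxb9a and hoxc10a were still detected in High-Fli1+ cells. hoxb9a had 0.411 and 0 FPKM in High-Fli1+, 4.602 and 10.7 FPKM in Low-Fli1+ and 8.94 and 15.9 FPKM in Fli1- libraries. hoxc10a, whose mouse counterpart marks the lumbar spinal cord, had 2.76 and 0.235 FPKM in High-Fli1+, 6.60 and 6.72 FPKM in Low-Fli1+ and 16.2 and 17.0 FPKM in Fli1- libraries. Again no High-Fli1+ value reached a Low-Fli1+ or Fli1- value. The log2 fold changes against Fli1- were -3.45 ± 0.60 for hoxb9a and -3.03 ± 0.62 for hoxc10a (SE), with limma adjusted p of 0.0168 and 0.0258.

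The other 4 posterior genes were listed at 0 in both High-Fli1+ libraries, so no fold change is given. hoxc9a, whose mouse counterpart sets thoracic motor neuron identity, had 14.4 and 3.64 FPKM in Low-Fli1+ and 6.59 and 10.1 FPKM in Fli1- libraries (limma adjusted p 0.0318 for High-Fli1+ against Fli1-). hoxb10a was also at 0 in both Low-Fli1+ libraries and had 3.02 and 3.91 FPKM in Fli1- libraries (limma adjusted p 0.0222). hoxc11b was at 0 in the same 4 libraries and had 3.39 and 3.66 FPKM in Fli1- libraries (limma adjusted p 0.0205). These 2 genes were thus detected in Fli1- libraries only, among the 6. hoxc12b had 0 and 1.16 FPKM in Low-Fli1+ and 6.50 and 3.77 FPKM in Fli1- libraries (limma adjusted p 0.0331).

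These calls rest on 2 libraries a population, and they depended on each library of the pair compared. Leaving out a High-Fli1+ or Fli1- library leaves 1 library in that population, and calls among all genes became fewer too. Without a Low-Fli1+ library, calls among all genes became more numerous. Without High-Fli1+ replicate 1, 2 Hox genes were called (hoxc10a and hoxd3a). Without High-Fli1+ replicate 2, 0 were called, and the limma adjusted p of the 11 genes lay between 0.061 and 0.160. Without Fli1- replicate 1 or Fli1- replicate 2, hoxb10a and hoxc11b alone were called. Both were listed at 0 in every High-Fli1+ and Low-Fli1+ library, so those fits had no residual spread for them. Their calls there follow from the zeros and do not measure stability. Leaving out a Low-Fli1+ library, which enters this comparison only through the spread, gave 17 calls without replicate 1 and 16 without replicate 2. hoxc3a was called in none of these 6 fits. With all libraries, the call of hoxc3a was lost with pseudocounts of 0.1 and 5, quantile normalization and median-ratio scaling, that of hoxc6a with quantile normalization, those of hoxc10a and hoxc12b with a pseudocount of 0.1 and those of hoxc8a and hoxc9a with a pseudocount of 5. Without a filter on low values, hoxb10a and hoxc11b alone remained called, and their spread came from the Fli1- pair only.

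The direction extended beyond the called genes. Both High-Fli1+ values lay below both Fli1- values for 35 of the 47 Hox genes, where 44.2% of all genes did so. Both lay above for 4 (hoxa2b, hoxb4a, hoxd4a and hoxa13b), where 21.6% of all genes did so. hoxa2b had 2.88 and 3.04 FPKM in High-Fli1+, 2.58 and 1.78 FPKM in Low-Fli1+ and 0.722 and 0.845 FPKM in Fli1- libraries, and its log2 fold change of 1.15 against Fli1- missed the threshold (limma adjusted p 0.164). It passed with quantile normalization (limma adjusted p 0.0409). hoxd4a had 19.1 and 13.4 FPKM in High-Fli1+, 7.98 and 0.902 FPKM in Low-Fli1+ and 7.92 and 9.05 FPKM in Fli1- libraries, with a log2 fold change of 0.84 that also missed it (limma adjusted p 0.512).

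The median log2 fold change over the 47 Hox genes was -1.70, while that of all 19237 genes was -0.35. Since the median of all genes was itself shifted, 2 other scalings were tried: quantile normalization put all genes at 0.01 and the Hox genes at -1.31, and median-ratio scaling put them at -0.10 and -1.48. By class, the median was -0.11 over anterior, -2.27 over central and -1.77 over posterior genes, and the anterior median changed sign, to 0.09 with quantile normalization and 0.20 with median-ratio scaling. In all 12 central genes both High-Fli1+ values lay below both Fli1- values, where 44.2% of all genes did so. Anterior genes were not uniform, with group 3 split between hoxa3a (log2 fold change -0.11, limma adjusted p 0.871) and hoxb3a (0.25, limma adjusted p 0.706) on one side and the called hoxc3a and hoxd3a on the other. Across the 47 genes, the log2 fold change and the paralog number had a Spearman rho of -0.11.

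**Figure D4:**
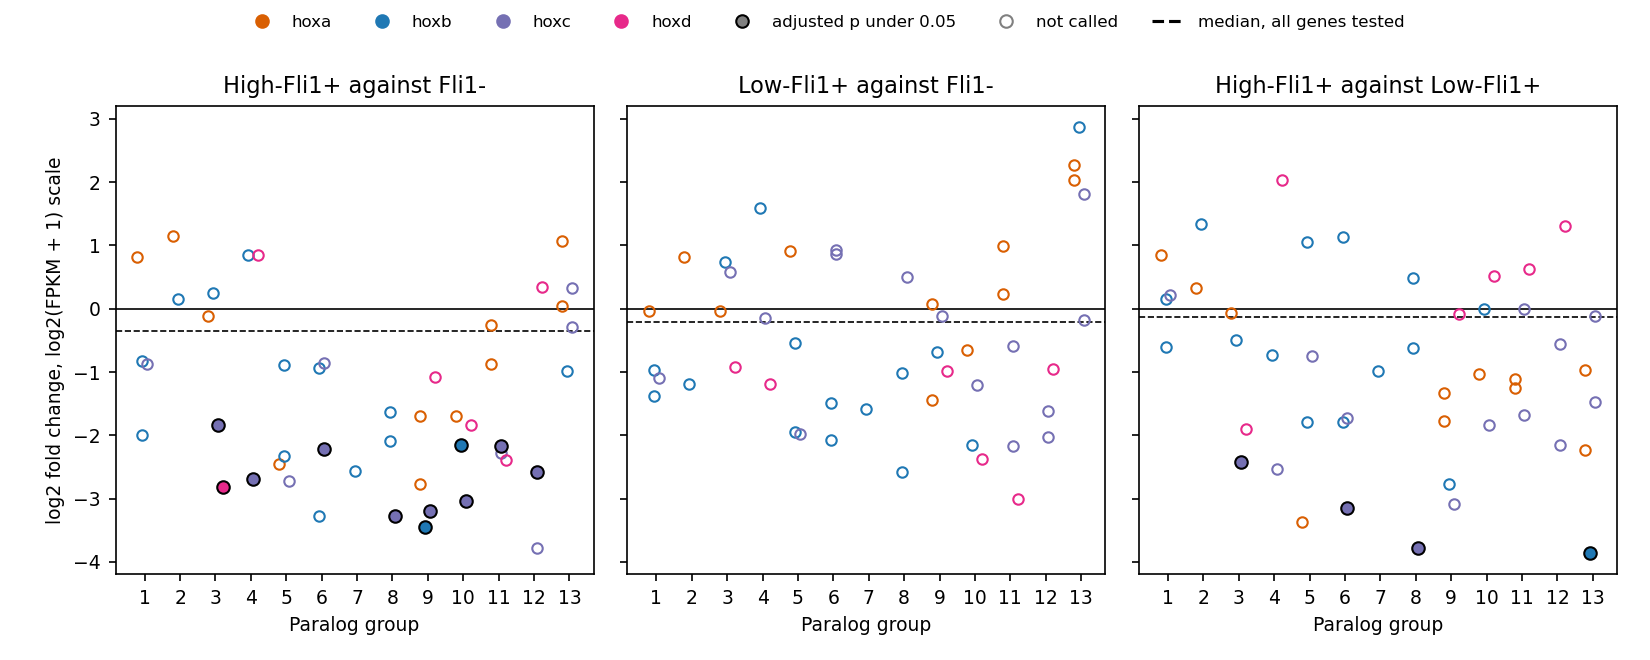
log2 fold change of each tested Hox gene (y axis, log2(FPKM + 1) scale) against its paralog group (x axis), in 3 panels of 47 genes each; filled points passed limma's adjusted p under 0.05, colours give the cluster letter and the dashed line is the median of all genes tested. Called genes number 11 in High-Fli1+ against Fli1-, 0 in Low-Fli1+ against Fli1- and 4 in High-Fli1+ against Low-Fli1+, and all of them lie below 0.

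Calls gathered in the clusters of letter c. Of the 11 genes that fell, 8 were hoxc genes out of 15 tested (53.3%), and 0 of 11 hoxa genes fell. Another 2 were hoxb genes out of 15 (13.3%) and 1 was a hoxd gene out of 6 (16.7%). Over all genes tested 11.5% were lower, so the hoxb and hoxd shares were near that of all genes. These counts describe the members and were not tested against each other. In the hoxca cluster 6 of 11 genes fell (54.5%). In all 11, both High-Fli1+ values were below both Fli1- values, where 44.2% of all genes did so. The summed hoxca FPKM was 12.1 and 17.0 in High-Fli1+, 138.5 and 119 in Low-Fli1+ libraries and 99.5 and 143.5 in Fli1- libraries. By comparison, the hoxba cluster, which holds hoxb3a, summed to 101 and 74.1 FPKM in High-Fli1+, 166 and 136 FPKM in Low-Fli1+ and 122 and 131 FPKM in Fli1- libraries. In both clusters the High-Fli1+ sums were the lowest of the 6.

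The annotated spans of neighbouring Hox genes overlap, and how the authors' counting divided reads between them is not given in the sources used here. In the RefSeq annotation, the span of hoxc3a overlaps those of hoxc4a, hoxc5a, hoxc6a, hoxc8a and hoxc9a, and that of hoxb3a overlaps hoxb4a, hoxb5a and hoxb6a. The hoxa3a span overlaps hoxa5a, hoxd3a overlaps hoxd4a, and hoxb1b overlaps hoxb5b and hoxb6b. In all, 17 Hox genes overlap another Hox gene in the analysed set, and 30 overlap any other annotated gene. Values of these genes are uncertain to that extent, and calls within hoxca may not be separate measurements.

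**Figure D5:**
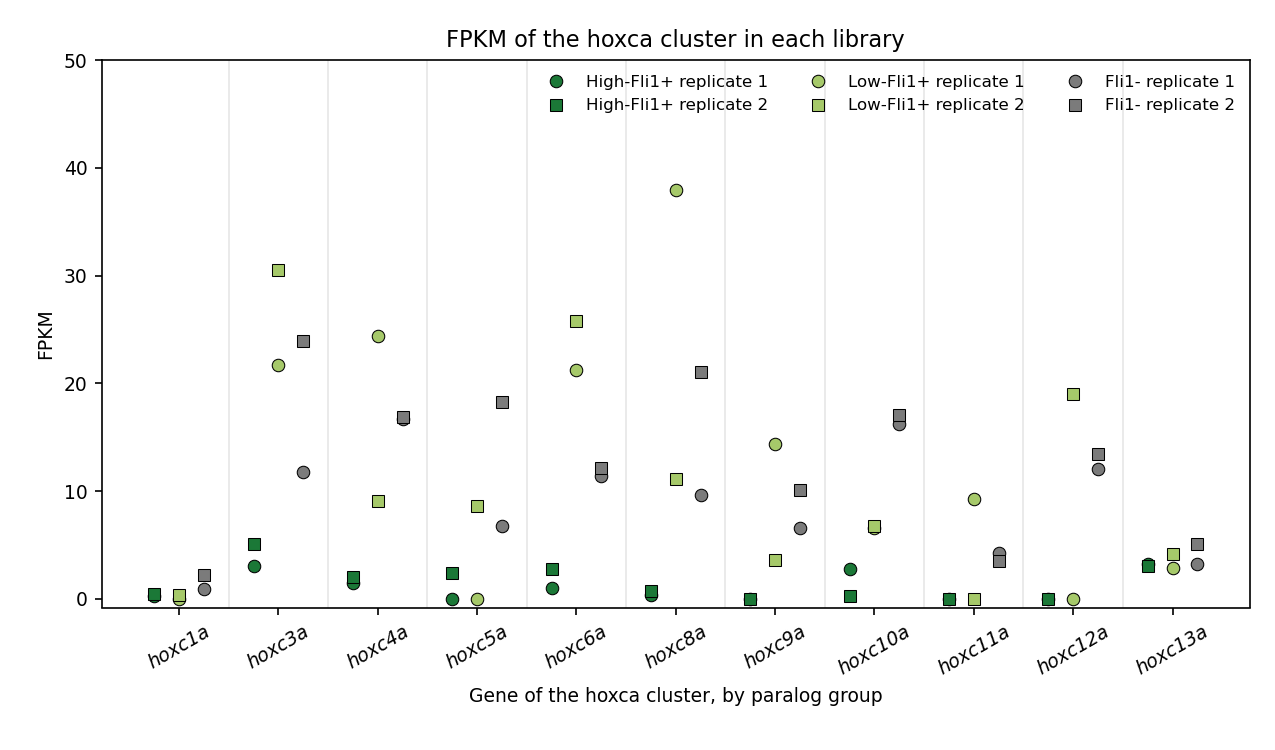
FPKM (y axis) of the 11 hoxca genes (x axis, by paralog group) in each library; circles are replicate 1 and squares replicate 2. The High-Fli1+ points stay at or below 5.12 FPKM in all 11 genes, and the Low-Fli1+ points of hoxc8a lie at 38.0 and 11.1 FPKM.

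In Low-Fli1+ cells, no Hox gene passed the test against Fli1- cells. limma called 0 of 47, where 2.14% of all genes were called higher and 1.1% lower; at an unadjusted p under 0.05, 4 Hox genes were higher and 6 lower, against 8.71% and 12% of all genes. The median log2 fold change was -0.68 over the Hox genes and -0.21 over all genes. Both Low-Fli1+ values lay above both Fli1- values for 11 Hox genes and below for 14, where 18.9% and 30.5% of all genes did so. Leaving out Low-Fli1+ replicate 2, which leaves 1 Low-Fli1+ library, brought calls of hoxb4a (higher) and of hoxb5a, hoxb6a, hoxb8b and hoxc12a (lower). Leaving out Fli1- replicate 1 or Fli1- replicate 2 brought calls of hoxb10a and hoxc11b (lower). Those 2 genes were at 0 in every Fli1+ library and had no residual spread in these fits, so the calls do not measure stability. This comparison shares the Fli1- libraries with the previous one.

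The largest positive log2 fold changes of Hox genes in Low-Fli1+ against Fli1- cells belonged to group 13, which acts in the tail tip and the distal fins. hoxb13a had 0 and 0.563 FPKM in High-Fli1+, 13.3 and 22.0 FPKM in Low-Fli1+ and 1.33 and 1.62 FPKM in Fli1- libraries. hoxa13a, which with hoxa13b is needed for fin ray formation in zebrafish, had 0.714 and 1.05 FPKM in High-Fli1+, 7.69 and 7.89 FPKM in Low-Fli1+ and 0.734 and 0.931 FPKM in Fli1- libraries. In both genes the Low-Fli1+ libraries stood above the 4 others. The log2 fold changes of Low-Fli1+ against Fli1- were 2.87 for hoxb13a and 2.26 for hoxa13a and just missed the threshold, with limma adjusted p of 0.0550 and 0.0672. Both passed with quantile normalization (limma adjusted p 0.0355 for hoxb13a and 0.0458 for hoxa13a) and with a pseudocount of 5.

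Across all 3 populations, limma's F test called hoxb13a (adjusted p 0.0195) and hoxa13a (adjusted p 0.0420) among 11 Hox genes, where 14.6% of all genes were called. The other 9 were hoxc3a, hoxd3a, hoxc4a, hoxc6a, hoxc8a, hoxb9a, hoxc9a, hoxb10a and hoxc11b. The F test called 0 Hox genes without High-Fli1+ replicate 1 or High-Fli1+ replicate 2, 2 without Fli1- replicate 1 or Fli1- replicate 2, 16 without Low-Fli1+ replicate 1, and 20 when replicate 2 of Low-Fli1+ was left out. hoxa13b had 1.74 and 2.70 FPKM in High-Fli1+, 3.11 and 8.42 FPKM in Low-Fli1+ and 0.286 and 0.788 FPKM in Fli1- libraries. hoxc13b had 1.25 and 0.976 FPKM in High-Fli1+, 5.94 and 3.95 FPKM in Low-Fli1+ and 0.113 and 1.51 FPKM in Fli1- libraries. Both were highest in the Low-Fli1+ libraries, with limma adjusted p against Fli1- of 0.136 and 0.161. hoxc13a did not share that order, with 3.23 and 3.07 FPKM in High-Fli1+, 2.88 and 4.15 FPKM in Low-Fli1+ and 3.24 and 5.06 FPKM in Fli1- libraries. Nor did hoxd13a, which was too low to be tested. It was listed at 0 in every High-Fli1+ and Low-Fli1+ library and at 0.415 and 1.07 FPKM in Fli1- libraries.

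Group 13 as a whole summed to 6.93 and 8.36 FPKM in High-Fli1+, 32.9 and 46.4 FPKM in Low-Fli1+ and 6.12 and 10.99 FPKM in Fli1- libraries. Groups 9 to 12 had another order, with 14.3 and 11.9 FPKM in High-Fli1+, 53.5 and 87.5 FPKM in Low-Fli1+ and 106 and 127 FPKM in Fli1- libraries. In Low-Fli1+ libraries the sum of group 13 was above and the pooled sum of groups 9 to 12 below the Fli1- range, though no gene of either passed the test. Taken singly, group 10 was below that range in Low-Fli1+ libraries, and the sums of groups 9, 11 and 12 overlapped it. Within groups 9 to 12, hoxd10a was at 0 in both Low-Fli1+ libraries, at 0 and 1.07 FPKM in High-Fli1+ and at 3.98 and 4.35 FPKM in Fli1- libraries. hoxd11a was also at 0 in both Low-Fli1+ libraries, at 0 and 1.36 FPKM in High-Fli1+ and at 4.62 and 10.5 FPKM in Fli1- libraries. Neither passed the test against Fli1- in Low-Fli1+ cells (limma adjusted p 0.0741 for hoxd10a and 0.0692 for hoxd11a).

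Genes of the fin bud and lateral plate, tissues in which group 13 genes can act, did not share 1 order. In High-Fli1+ against Fli1- cells 5 of 13 rose and 2 fell, and in Low-Fli1+ against Fli1- cells 4 rose and 0 fell, against 5.79%, 11.5%, 2.14% and 1.1% of all genes. The genes prrx1a, prrx1b, hand2 and sall4 were highest in High-Fli1+ libraries without overlap, and shha and tbx4 were highest in Fli1- libraries. prrx1b, for example, had 189.6 and 154 FPKM in High-Fli1+, 38.5 and 105 FPKM in Low-Fli1+ and 3.19 and 3.97 FPKM in Fli1- libraries. In High-Fli1+ against Low-Fli1+ cells 2 of 13 fell and 0 rose, against 4.15% and 1.22% of all genes. The 2 genes that fell there were the actinodin genes and1 and and2, which build the fin fold. and1 had 6.83 and 17.5 FPKM in High-Fli1+, 124 and 197 FPKM in Low-Fli1+ and 33.0 and 58.8 FPKM in Fli1- libraries. and2 had 18.3 and 15.6 FPKM in High-Fli1+, 87.9 and 161 FPKM in Low-Fli1+ and 15.9 and 31.0 FPKM in Fli1- libraries. Both were highest in the Low-Fli1+ libraries, unlike the 6 genes above. The whole list of 13 fin bud and lateral plate genes summed to 425 and 380 FPKM in High-Fli1+, 348 and 619 FPKM in Low-Fli1+ and 82.2 and 135 FPKM in Fli1- libraries, and its part in the group 13 values was not tested.

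Set directly against Low-Fli1+ cells, High-Fli1+ cells had lower hoxb13a, hoxc6a, hoxc8a and hoxc3a. These 4 fell and 0 rose among 47 Hox genes, where 4.15% of all genes were called lower and 1.22% higher (5.37% either way). The log2 fold changes were -3.86 ± 0.55 for hoxb13a, -3.15 ± 0.45 for hoxc6a, -3.78 ± 0.69 for hoxc8a and -2.43 ± 0.46 for hoxc3a (SE), with limma adjusted p of 0.0239, 0.0245, 0.0416 and 0.0453. Both High-Fli1+ values lay below both Low-Fli1+ values for 18 Hox genes and above for 3 (hoxa2b, hoxd4a and hoxd12a), where 28.3% and 18.3% of all genes did so. The median log2 fold change was -0.97 over the Hox genes and -0.13 over all genes. Without any 1 of High-Fli1+ replicate 1, High-Fli1+ replicate 2, Low-Fli1+ replicate 1, Fli1- replicate 1 or Fli1- replicate 2, 0 Hox genes were called, and without Low-Fli1+ replicate 2, 11 were, hoxc3a not among them. In the fits with 0 Hox calls, the calls among all genes were lost as well, so that loss is not particular to the Hox genes. In the last fit, calls among all genes became more numerous. With all libraries, the call of hoxc3a was lost with pseudocounts of 0.1 and 5, quantile normalization and median-ratio scaling. That of hoxc8a was lost with a pseudocount of 5 and quantile normalization, and that of hoxb13a with a pseudocount of 0.1. All 4 were lost without a filter.

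The genes nearest to the threshold were hoxc4a, hoxa13a, hoxb9a, hoxc9a and hoxa5a, with limma adjusted p of 0.0535, 0.0571, 0.0590, 0.0662 and 0.0688. hoxc4a had a log2 fold change of -2.54. hoxa5a, at 0 and 2.51 FPKM in High-Fli1+, 20.2 and 16.6 FPKM in Low-Fli1+ and 5.28 and 15.9 FPKM in Fli1- libraries, had one of -3.37. In all 5 genes both High-Fli1+ values lay below both Low-Fli1+ values.

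Duplicate copies of a gene were seldom equal. hoxb8a was above hoxb8b in 6 of 6 libraries, with a ratio of mean FPKM of 3.497. hoxc6a was above hoxc6b in 5 of 6 libraries, by a ratio of means of 3.83, and the exception was High-Fli1+ replicate 1, in which hoxc6a was at 0.971 and hoxc6b at 2.06 FPKM. Of 11 pairs, the b copy had the higher mean in 5, among them hoxb1b, hoxa9b and hoxa11b with ratios of a to b of 0.458, 0.759 and 0.560. For hoxa13 the order of the copies varied: the a copy was above the b copy in 3 of 6 libraries, namely Low-Fli1+ replicate 1 and both Fli1- libraries, and below it in both High-Fli1+ libraries. The ratio of means of 1.12 for this pair therefore hides opposite differences.

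Of the Hox cofactors, 14 Pbx, Meis and Pknox genes were tested, and in High-Fli1+ against Fli1- cells 1 rose and 4 fell (7.14% and 28.6%, against 5.79% and 11.5% of all genes), with a median log2 fold change of -0.61. meis1a had 53.5 and 47.2 FPKM in High-Fli1+, 20.1 and 23.0 FPKM in Low-Fli1+ and 7.89 and 9.62 FPKM in Fli1- libraries, and rose by 2.40 ± 0.27 on the log2 scale (SE, limma adjusted p 0.0053). pbx3a had 0 and 0.388 FPKM in High-Fli1+, 2.14 and 9.68 FPKM in Low-Fli1+ and 12.8 and 12.6 FPKM in Fli1- libraries (log2 fold change -3.54 ± 0.70, limma adjusted p 0.0238). meis1a was thus highest and pbx3a lowest in High-Fli1+ libraries, without overlap. The other 3 that fell were pbx3b, meis2b and meis2a, by smaller amounts (log2 fold changes of -1.29, -1.13 and -0.95). limma called 0 cofactors in either comparison with Low-Fli1+ cells. At an unadjusted p under 0.05, 2 were higher and 1 lower in Low-Fli1+ against Fli1-, against 8.71% and 12% of all genes. In High-Fli1+ against Low-Fli1+, 1 was higher and 3 were lower, against 8.15% and 15.8% of all genes.

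Upstream regulators went in both directions. Of 15 tested, 4 rose and 4 fell in High-Fli1+ against Fli1- cells (26.7% each way, against 5.79% and 11.5% of all genes). Those that rose belong to retinoic acid handling: the receptors rargb and rarga, the degrading enzyme cyp26b1 and the synthesizing enzyme aldh1a2. Not all listed genes of that handling rose. The degrading enzymes cyp26a1 and cyp26c1 had log2 fold changes of -0.94 and -0.87 and were not called (limma adjusted p 0.123 and 0.278). rargb had 173 and 130 FPKM in High-Fli1+, 47.8 and 62.8 FPKM in Low-Fli1+ and 4.98 and 9.36 FPKM in Fli1- libraries, with a log2 fold change of 4.26 ± 0.36 (SE, limma adjusted p 0.00315). aldh1a2 had 53.1 and 62.6 FPKM in High-Fli1+, 45.3 and 22.6 FPKM in Low-Fli1+ and 14.5 and 13.7 FPKM in Fli1- libraries (limma adjusted p 0.0207). In both genes the Fli1- libraries were the lowest.

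Those that fell were hnf1ba, hnf1bb, gbx2 and cdx1b, which did not share 1 order over the populations. The tissue behind their values was not tested. gbx2, which acts at the border of midbrain and hindbrain, had 1.33 and 1.29 FPKM in High-Fli1+, 17.6 and 19.5 FPKM in Low-Fli1+ and 15.1 and 13.5 FPKM in Fli1- libraries. It fell against Fli1- (log2 fold change -2.73 ± 0.36, limma adjusted p 0.00797) and against Low-Fli1+ (-3.08 ± 0.36, limma adjusted p 0.0179). Unlike gbx2, hnf1ba and hnf1bb were listed at 0 in all High-Fli1+ and Low-Fli1+ libraries. In Fli1- libraries hnf1ba had 10.3 and 6.34 FPKM and hnf1bb 3.97 and 2.04 FPKM. In Low-Fli1+ against Fli1- cells, hnf1ba fell and rargb, mafba and cyp26b1 rose (6.67% and 20% of 15 tested, against 1.1% and 2.14% of all genes). In High-Fli1+ against Low-Fli1+ cells, 2 of 15 fell (gbx2 and cyp26a1) and 0 rose, against 4.15% and 1.22% of all genes. Retinoic acid degrading cyp26a1, at 5.96 and 6.41 FPKM in High-Fli1+, 30.8 and 27.0 FPKM in Low-Fli1+ and 10.1 and 16.1 FPKM in Fli1- libraries, was lower in High-Fli1+ than in Low-Fli1+ cells (limma adjusted p 0.0348).

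Of 26 Polycomb and Trithorax group genes tested, 1 rose and 1 fell in High-Fli1+ against Fli1- cells (3.85% each way, against 5.79% higher and 11.5% lower of all genes). These were cbx7a (log2 fold change 2.02, limma adjusted p 0.0381) and phc2b (-1.80, limma adjusted p 0.0148). At limma's unadjusted p under 0.05, 1 was higher and 6 were lower, against 9.88% and 22.1% of all genes. Both High-Fli1+ values lay below both Fli1- values for 16 and above for 4, where 44.2% and 21.6% of all genes did so. Their summed level was 715 and 654 FPKM in High-Fli1+, 820 and 797 FPKM in Low-Fli1+ and 854 and 838 FPKM in Fli1- libraries. limma called 0 of them in either comparison with Low-Fli1+ cells. At an unadjusted p under 0.05, 1 was higher and 2 lower in Low-Fli1+ against Fli1-, against 8.71% and 12% of all genes. In High-Fli1+ against Low-Fli1+, 0 were higher and 2 lower, against 8.15% and 15.8% of all genes.

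The genes next to the Hox clusters were also examined. Of 37 tested protein-coding neighbours, 1 rose (rarga) and 2 fell (evx2 and tax1bp1b) in High-Fli1+ against Fli1- cells (2.70% and 5.41%, against 5.79% and 11.5% of all genes), with a median log2 fold change of -0.37, near the -0.35 of all genes. evx2, a homeobox gene of posterior spinal cord and fins, had 0 and 0.323 FPKM in High-Fli1+, 5.06 and 7.02 FPKM in Low-Fli1+ and 7.501 and 10.04 FPKM in Fli1- libraries (log2 fold change -3.07 ± 0.50, limma adjusted p 0.0139). It was also lower in High-Fli1+ than in Low-Fli1+ cells (limma adjusted p 0.0470).

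Markers of other tissues that express Hox genes, or that lack them, differed between the same populations. The 17 hindbrain and spinal cord factors summed to 28.7 and 13.8 FPKM in High-Fli1+, 123 and 114 FPKM in Low-Fli1+ and 226 and 246 FPKM in Fli1- libraries, and 9 fell in High-Fli1+ against Fli1- cells (52.9%, where 11.5% of all genes were lower). Of these 17, 5 were at 0 in each High-Fli1+ library, 5 in each Low-Fli1+ library and 0 in each Fli1- library. The 13 neuronal genes summed to 123 and 47.6 FPKM in High-Fli1+, 1106 and 714 FPKM in Low-Fli1+ and 1918 and 1624 FPKM in Fli1- libraries, and 11 fell (84.6%, against the same 11.5%). Forebrain and midbrain factors, which mark tissue in front of the Hox domains, also fell in 13 of 17 tested (76.5%, against 11.5%), with sums of 33.5 and 28.6 FPKM in High-Fli1+, 163 and 132 FPKM in Low-Fli1+ and 345 and 321 FPKM in Fli1- libraries. Each of these sums was lowest in High-Fli1+ and highest in Fli1- libraries.

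The sums of the 12 arch and cartilage genes had the opposite order, with 10186 and 8443 FPKM in High-Fli1+, 990 and 1036 FPKM in Low-Fli1+ and 153 and 179 FPKM in Fli1- libraries. Not every member had that order. In Low-Fli1+ against Fli1- cells, the log2 fold change was positive in 8 and negative in 4 (dlx2a, dlx5a, dlx3b and barx1). The sums of the 8 myeloid genes were highest in Low-Fli1+ cells, with 155 and 188 FPKM in High-Fli1+, 687 and 1040 FPKM in Low-Fli1+ and 17.6 and 22.2 FPKM in Fli1- libraries. Both High-Fli1+ values lay below both Low-Fli1+ values in 7 of the 8, where 28.3% of all genes did so, and those of lyz overlapped. In High-Fli1+ against Fli1- cells, the log2 fold change was positive in 6 and negative in 2 (mpeg1.1 and csf1ra). Red cell genes, 7 of 8 found, summed to 76.5 and 77.1 FPKM in High-Fli1+, 3131 and 4986 FPKM in Low-Fli1+ and 42312 and 33579 FPKM in Fli1- libraries. The 8 skeletal muscle genes were low throughout, with 20.0 and 25.9 FPKM in High-Fli1+, 10.9 and 32.5 FPKM in Low-Fli1+ and 18.8 and 34.9 FPKM in Fli1- libraries, and the 8 gut and kidney genes reached 1.49 and 5.88 FPKM in High-Fli1+, 5.99 and 25.1 FPKM in Low-Fli1+ and 154 and 97.1 FPKM in Fli1- libraries. The part of these markers in the Hox values was not tested.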

How the data were processed

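Poly-A RNA libraries of High-Fli1+, Low-Fli1+ and Fli1- cells (2 each) were given by the authors as 1 table of FPKM per gene and library, per the file headers; aligner, build, annotation and strand are not given in the sources used here. Of 29144 rows, 18 named by a calendar date were left out. Values were used as log2(FPKM + 1) without further scaling. The 19237 genes with a mean of at least 0.5 FPKM over the 6 libraries entered 1 linear model by population (limma 3.58.1, R 4.3.3, moderated variances with trend, 3 residual and 2.89 prior degrees of freedom, two-sided). The same fit was run on simulated data with changes placed only in genes of a mean log2(FPKM + 1) above 3. That run does not cover lower genes such as hoxb10a and hoxc11b. p-values were Benjamini-Hochberg adjusted over all genes tested and called under 0.05. FPKM carry no depth, so no counting interval is given. Tables and plots used Python 3.11.15, pandas 2.3.3 and matplotlib 3.10.9.

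Values in every library are given for Hox genes called in a comparison and for the gene with the highest mean in each paralog group; some others are named for a pattern seen in their values. From the other lists and the cluster neighbours, the called genes with the 4 largest changes could be named. Members and lists were chosen with earlier results of these data known. Names and gene order came from RefSeq (GRCz12tu), with 48 of 48 Hox names matched. Alternatives were pseudocounts of 0.1 and 5, no filter, a mean of at least 2 FPKM, quantile normalization, median-ratio scaling, the replicate number as a block, each library left out with the genes tested kept, other limits of the anterior class, and other ways of taking shares.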

Additional observations from a re-analysis of the deposited data

How the results depend on the processing

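With 2 libraries a population, counts of calls moved with most choices, and no Hox gene that passed the test in a comparison changed direction under any alternative. For High-Fli1+ against Fli1-, 11 calls became 2 without a filter on low values, 8 to 11 under the other full-data settings and 0 to 17 with 1 library left out. For Low-Fli1+ against Fli1-, 0 calls became 2 with a pseudocount of 0.1 and 2 without a filter (hoxb10a and hoxc11b, lower). Both of these genes were at 0 in every Fli1+ library. With a pseudocount of 5 and with quantile normalization, the 2 calls were hoxa13a and hoxb13a, higher. The calls also moved with 1 library left out, and in some of those fits the calls among all genes were lost as well. For High-Fli1+ against Low-Fli1+, 4 calls became 0 without a filter, 2 with quantile normalization and 0 to 11 with 1 library left out. For the F test, 11 calls became 2 without a filter, 6 with quantile normalization and 0 to 20 with 1 library left out. Fewer libraries leave fewer residual degrees of freedom, and the cause of the other changes was not tested.

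The replicate number as a block gave 10 calls for High-Fli1+ against Fli1-, 0 for Low-Fli1+ against Fli1-, 3 for High-Fli1+ against Low-Fli1+ and 4 for the F test. It ended the call of hoxc12b against Fli1- and of hoxc8a against Low-Fli1+. Same-numbered libraries deviated together with r of 0.121 (High-Fli1+ and Low-Fli1+), 0.0806 (High-Fli1+ and Fli1-) and 0.0962 (Low-Fli1+ and Fli1-). The labels do not say what same-numbered libraries share beyond the number, and these r values cannot decide it.

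The anterior median log2 fold change of High-Fli1+ against Fli1-, -0.11, became 0.20 with median-ratio scaling and -0.46 with groups 1 to 3 as anterior, and ran from -0.29 to -0.04 with 1 library left out. The posterior median of -1.77 became -3.13 with a pseudocount of 0.1, -0.76 with 5 and -1.35 with quantile normalization (left out: -1.99 to -1.64). For Low-Fli1+ against Fli1-, the posterior median of -0.67 became -1.07 and -0.30 with pseudocounts of 0.1 and 5 (left out: -1.07 to -0.36), and the anterior one ran from -0.53 to 0.09. For High-Fli1+ against Low-Fli1+, the anterior median of -0.07 became -0.61 at a mean of at least 2 FPKM (left out: -0.18 to 0.32), and the posterior median of -1.18 became -1.74, -0.56 and -1.58 with pseudocounts of 0.1 and 5 and the 2 FPKM filter (left out: -1.37 to -0.41).

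The posterior share became 24.4% in High-Fli1+, 37.0% in Low-Fli1+ libraries and 38.3% in Fli1- libraries over summed log2(FPKM + 1), and 14.2%, 27.9% and 29.1% without hoxb3a, so High-Fli1+ remained lowest in both. Single libraries ran from 10.3 to 11.1% in High-Fli1+, 20.0 to 27.6% in Low-Fli1+ libraries and 26.5 to 26.8% in Fli1-.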
